A study of Mus musculus with 8 samples.

Results

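The genes examined here are the DNA methyltransferases Dnmt1, Dnmt3a and Dnmt3b, the catalytically inactive cofactor Dnmt3l, the maintenance factor Uhrf1, the TET dioxygenases Tet1, Tet2 and Tet3, and the regulators Prdm14 and Dppa3. They were chosen by symbol, and all 10 were among the 23420 gene rows counted in mouse embryonic stem cells (mESCs). The cells were derived from blastocysts of a 129 x C57BL/6 background, grew without feeder cells in serum with the cytokine LIF, and were either IPO13+/+ or IPO13-/-. IPO13 encodes Importin-13, a carrier that moves proteins both into and out of the nucleus. Cells of each genotype were left untreated or were exposed to 125 µM H2O2 for 1 h and then kept for 2 h in fresh medium, so that the 4 groups of 2 libraries ask how an oxidative stress and the loss of the carrier act on the RNA of these genes. The knockout is a previously described line, and it was compared with a single IPO13+/+ line. In these libraries, the loss of IPO13 and other differences between the 2 lines cannot be told apart. No source used here says that the libraries of a group came from separate cultures, so p-values measure only the spread between these libraries, which may be technical.

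In mammalian cells, methyl groups on cytosines of CpG dinucleotides are set by DNMT3A and DNMT3B, which DNMT3L stimulates, and are copied after replication by DNMT1, which UHRF1 brings to hemimethylated DNA. TET enzymes oxidise 5-methylcytosine, using molecular oxygen, iron(II) and 2-oxoglutarate, and so start its removal. In mESCs, TET1 and TET2 are the abundant TET enzymes. PRDM14 is a zinc finger protein that keeps de novo methyltransferase genes low and hinders FGF signalling, and DPPA3 (STELLA) opposes UHRF1 and protects methylation marks in the early embryo. The assay measured RNA and not methylation, and the counts do not resolve isoforms.

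Each library held between 60397877 and 73789079 reads counted on genes. Ipo13 itself stood at 70.3 and 68.3 CPM (reads scaled to the library total with TMM factors) without treatment and at 72.4 and 69.3 with it in the IPO13+/+ line. In the IPO13-/- cells it read 25.9 and 25.0 untreated and 24.9 and 25.9 after H2O2, so transcript was reduced but still counted. The 15 embryonic stem cell markers examined summed to between 8333 and 9664 CPM in every library. Markers of other cells that such cultures can hold summed to far less, with 8 fibroblast genes between 9.28 and 11.9 CPM (Col3a1 and Postn at 0 to 3 reads), 8 trophectoderm genes between 102 and 120.0 CPM, 8 primitive endoderm genes between 128 and 205 CPM, and 7 primed epiblast genes between 37.3 and 62.2 CPM. The primed epiblast sum lay lower after H2O2 in each genotype and higher in IPO13-/- than in IPO13+/+ cells at each treatment. Much of both shifts lay in Zic2, at 18.1 and 10.4 CPM in IPO13+/+ and 27.5 and 17.8 CPM in IPO13-/- cells. The others were mixed. In untreated IPO13-/- cells Cdh2 was higher (8.22 against 5.92 CPM) and Otx2 lower (11.9 against 12.8 CPM). With H2O2, Otx2 fell (11.9 to 6.81 CPM in IPO13-/- cells) and Fgf5 rose (0.65 to 1.38 CPM). The primitive endoderm sum lay at 176 to 205 CPM untreated and 156 to 162 CPM treated in IPO13+/+ cells. In IPO13-/- cells it lay at 156 to 167 CPM and 128 to 135 CPM. The sum was thus lower after H2O2 in each genotype and lower in the knockout at each treatment. Most of it was 1 gene, Lama1, at 168 and 142 CPM in IPO13+/+ cells and 142 and 115 CPM in IPO13-/- cells, so it says little about the other 7 markers. The stem cell marker sum was lower in the knockout at each treatment, at 8333 to 8484 against 9046 to 9664 CPM. Much of this lay in Dppa5a, at 1294 against 1942 CPM untreated and 1477 against 2044 CPM treated. Other markers were mixed, and the median log2 fold change of the 15 between genotypes was -0.07 untreated and -0.0005 treated. The part of these shifts in the results was not tested. In such bulk RNA, fewer cells of a type and less RNA per cell cannot be told apart. The replicates of untreated IPO13+/+ cells differed most, with a chi-square per gene of 15.0 against 2.26 to 6.59 in the other groups.

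The promoter windows of Tet2, Tet3 and Dnmt3b are shown because Tet2 and Tet3 carried the clearest genotype differences among the enzymes, while Dnmt3b fell by 15.1% and 15.6% with H2O2 in the lines with and without IPO13. Each window runs from 250 bases before to 50 bases after a transcription start in RefSeq on GRCm38.p6, 5′ to 3′ on the strand of the gene, and capitals mark the GC box GGGCGG, the core site of SP1, on either strand. SP1 is one of the transcription factors that the study followed.
Tet2, chr3:133544341-133544640, minus strand: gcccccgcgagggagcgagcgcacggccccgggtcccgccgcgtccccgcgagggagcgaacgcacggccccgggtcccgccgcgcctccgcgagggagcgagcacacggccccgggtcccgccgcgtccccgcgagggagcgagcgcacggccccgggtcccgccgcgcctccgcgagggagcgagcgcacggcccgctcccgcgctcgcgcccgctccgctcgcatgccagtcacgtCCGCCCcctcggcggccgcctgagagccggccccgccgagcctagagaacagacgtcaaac
Tet3, chr6:83441629-83441928, minus strand: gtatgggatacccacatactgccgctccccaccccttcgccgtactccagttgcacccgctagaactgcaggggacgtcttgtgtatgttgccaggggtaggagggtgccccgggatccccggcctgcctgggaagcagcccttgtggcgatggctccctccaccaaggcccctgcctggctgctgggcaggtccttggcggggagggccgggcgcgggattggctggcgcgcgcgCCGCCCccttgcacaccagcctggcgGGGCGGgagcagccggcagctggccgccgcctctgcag
Dnmt3b, chr2:153649199-153649498, plus strand: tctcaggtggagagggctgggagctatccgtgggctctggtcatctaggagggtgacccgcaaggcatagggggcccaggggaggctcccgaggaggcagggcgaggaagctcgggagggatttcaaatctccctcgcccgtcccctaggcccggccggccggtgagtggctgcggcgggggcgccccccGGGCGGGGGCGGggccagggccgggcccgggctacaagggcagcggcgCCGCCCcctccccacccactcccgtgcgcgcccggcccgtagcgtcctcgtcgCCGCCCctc
The Tet2 window held 57 CpG dinucleotides, more than 99.8% of the 32851 promoter windows of this length, whose median was 7. The Tet3 window held 22 and the Dnmt3b window 30. The GC box was found 1 time for Tet2, 2 times for Tet3 and 4 times for Dnmt3b, and 35.7% of all windows held at least 1. There were 15 windows for 8 of the 10 genes, and 12 of these 15 held a GC box. Some genes had more than 1 window, and 2 windows of Dnmt3a overlap, so the 15 are not independent. The shares over all windows were not matched for CpG count. The letters GGGTGG, which KLF factors can bind and which can overlap a GC box at the ends, occurred on either strand in 7 of the 15 windows, including those of Tet3 and Dnmt3b, against 31.5% of all windows. These counts describe letters and not binding.

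The genes covered a wide range of RNA levels. To compare them, CPM was divided by the kilobases of merged exons in GENCODE M21, which counts the exons of every annotated isoform. In untreated IPO13+/+ cells Dnmt3l stood highest, at 190.7 ± 6.7 CPM per kb (SD, n = 2), and Uhrf1 was next at 133.0 ± 1.3. Dnmt3b (56.5 ± 0.44), Tet1 (52.2 ± 7.6) and Dnmt1 (48.3 ± 1.8) followed, and their libraries overlapped, so that Dnmt3b was not apart from Tet1, nor Tet1 from Dnmt1. Dppa3 read 26.4 ± 1.4 CPM per kb. Tet2 (17.0 ± 2.1) and Prdm14 (16.8 ± 0.14) were not apart from each other. Dnmt3a (2.43 ± 0.12) and Tet3 (1.10 ± 0.11) were the lowest of the 10. Thus, among Dnmt3a, Dnmt3b and Dnmt3l and among the TET genes, the highest and lowest differed far more than any of these genes changed with treatment or genotype.

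**Figure D1:**
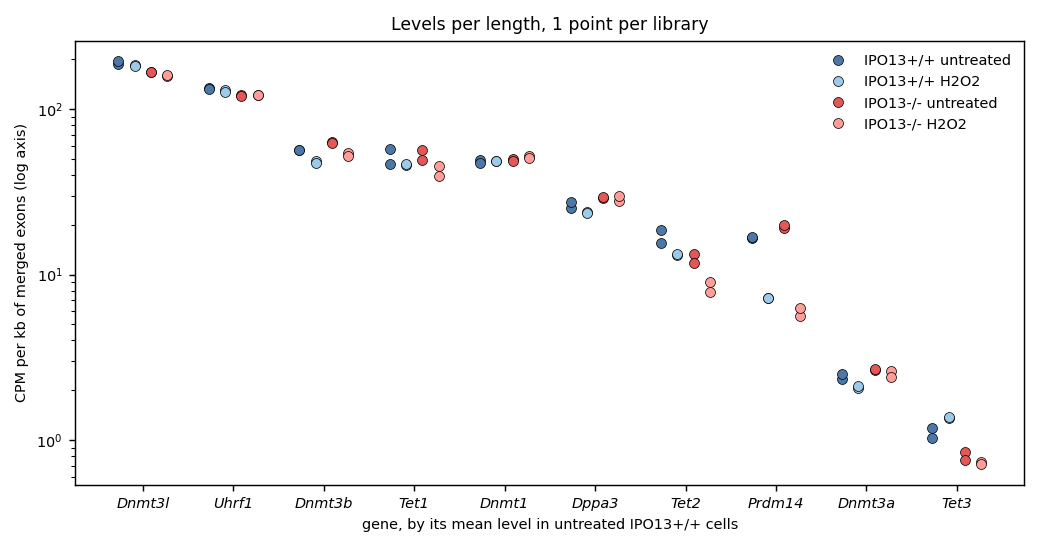
Levels of the 10 genes as CPM per kb of merged exons, on a log axis, with 1 point for each of the 8 libraries coloured by group. Dnmt3l and Uhrf1 lie above 100 CPM per kb in every library, Dnmt3a and Tet3 lie below 3, and Prdm14 shows the widest separation between untreated and treated cells.

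Among the 10 genes, Prdm14 showed the largest response to H2O2. This gene on chr1:13113457-13127163 (minus strand) read 42.7 and 43.3 CPM in untreated and 18.4 and 18.4 CPM in treated IPO13+/+ libraries. The IPO13-/- libraries read 48.9 and 51.1 CPM untreated and 14.3 and 16.1 CPM treated. The treated libraries lay below the untreated ones in each genotype with no overlap, and replicates were close, with counts of 2868 and 3030 falling to 1253 and 1274 in IPO13+/+ cells and 3703 and 3172 falling to 928 and 999 in IPO13-/- cells. With IPO13 present Prdm14 fell by 57.1%, which is -1.22 ± 0.05 on the log2 scale (SE, edgeR quasi-likelihood test, FDR = 7.41e-16). Without IPO13 it fell by 69.5%, or -1.71 ± 0.06 (FDR = 7.55e-19). FDR is the Benjamini-Hochberg adjusted p over all 19424 genes tested, and a gene is said to pass below 0.05. A fall that passes and reaches 2-fold was found for 0.149% of all tested genes with IPO13 and 0.371% without it. Prdm14 was the single gene of the 10 with such a call in either genotype. Among the 8620 genes with a mean of at least 10 CPM over the libraries, a limit set after the values were seen, no gene fell further than Prdm14 in either genotype, and the same was found at limits of 1 CPM (12197 genes) and 20 CPM (6943 genes).

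The response of Prdm14 also differed between the genotypes. Untreated IPO13-/- cells had more Prdm14 RNA than IPO13+/+ cells, with a log2 fold change of 0.22 ± 0.05 (FDR = 0.00102). After H2O2 they had less, with a log2 fold change of -0.27 ± 0.06 (FDR = 0.000584). The order of the genotypes was therefore turned by the treatment, and in neither condition did the libraries overlap. The interaction, which is the log2 response in IPO13-/- cells minus that in IPO13+/+ cells, was -0.49 ± 0.08 (FDR = 0.000342). Among the 8620 better expressed genes, this interaction value ranked 4 from the most negative, and it ranked 15 of 9906 when the limit was 5 CPM and 150 of 12197 when it was 1 CPM. Leaving out any single library kept the interaction call for Prdm14.

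By Pearson correlation of log2 CPM over the 8 libraries, the genes whose pattern was most like that of Prdm14, among 2436 genes whose group means span at least 2-fold, were Peg12 (r = 0.99), Gm6086 (r = 0.98) and Stc1 (r = 0.97). The 8 libraries form 4 groups of replicates, so the correlation mainly compares 4 group levels.

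Among the TET enzymes, Tet2 fell with H2O2 in both genotypes and was lower in IPO13-/- cells at each treatment. Tet2 (chr3:133463679-133545139, minus strand) read 312 and 262 CPM in untreated and 221 and 226 CPM in treated IPO13+/+ libraries. The IPO13-/- libraries held 224 and 199 CPM untreated and 152 and 133 CPM treated. The lowest value of each untreated group lay above the highest value of the treated group of the same genotype, and treated IPO13-/- cells were the lowest of all. The fall with H2O2 was 22.1% in IPO13+/+ cells (log2 fold change -0.36 ± 0.06, FDR = 7.46e-05) and 32.6% in IPO13-/- cells (log2 fold change -0.57 ± 0.06, FDR = 6.13e-08). Between the genotypes, IPO13-/- cells were lower by a log2 fold change of -0.44 ± 0.06 untreated (FDR = 2.21e-06) and -0.65 ± 0.06 treated (FDR = 4.3e-09). The interaction for Tet2 was -0.21 ± 0.09 and did not pass (FDR = 0.251), with a 95% interval from -0.39 to -0.02. It passed without the first untreated IPO13+/+ library, at -0.34 (FDR = 0.00241). The antisense gene Gm42567 overlaps Tet2 and was not among the gene rows counted. Without a stated strand setting its reads cannot be told apart from those of Tet2. Over the 8 libraries the patterns most like that of Tet2 were those of Fgf10, Bahcc1 and Rai1 (each r = 0.98).

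Tet3 rose with H2O2 in the IPO13+/+ cells, and its difference in the knockout did not pass. Its locus is chr6:83362373-83459084 (minus strand), and its libraries read 19.6 and 17.1 CPM in untreated and 22.8 and 23.0 CPM in treated IPO13+/+ cells. Without IPO13 it read 14.2 and 12.6 CPM untreated and 12.3 and 11.9 CPM treated. Every IPO13-/- library lay below every IPO13+/+ library. Tet3 rose by 24.9% with H2O2 in IPO13+/+ cells (log2 fold change 0.32 ± 0.06, FDR = 0.00039). The log2 difference in the knockout was -0.15 ± 0.07 (FDR = 0.125). The genotype difference was -0.45 ± 0.07 in untreated cells (FDR = 5.74e-06) and -0.92 ± 0.07 in treated cells (FDR = 2.21e-11), so treated IPO13-/- cells had 47.1% less Tet3 RNA than treated IPO13+/+ cells. The interaction of -0.47 ± 0.10 passed (FDR = 0.00493). It did not pass with limma-voom (FDR = 0.0508), nor without the first untreated IPO13-/- library, where it was -0.40 (FDR = 0.212).

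Tet1, the most abundant TET transcript, varied more between replicates than the effects tested in IPO13+/+ cells. Tet1 (chr10:62804570-62908996, minus strand) read 890 and 723 CPM in untreated and 711 and 723 CPM in treated IPO13+/+ libraries. The knockout libraries read 877 and 764 CPM untreated and 698 and 610 CPM treated. The 2 untreated IPO13+/+ libraries differed 1.23-fold and the lower of them lay level with the treated libraries. The log2 difference with H2O2 was -0.17 ± 0.07 in IPO13+/+ cells (FDR = 0.0639), and it was -0.31 without the second untreated library and -0.01 without the first. Without IPO13, Tet1 fell by 20.3% (log2 fold change -0.33 ± 0.07, FDR = 0.000378), a call that was lost with DESeq2 (FDR = 0.0696) and without the first untreated IPO13-/- library (FDR = 0.167). Neither genotype difference passed, with 95% intervals from -0.11 to 0.16 untreated and from -0.27 to 0.0045 treated. The untreated difference was 0.18 and passed (FDR = 0.00789) without the first untreated IPO13+/+ library. The treated difference of -0.13 passed without either untreated IPO13+/+ library (FDR = 0.0161 each) and was -0.23 without the first treated IPO13-/- library (FDR = 0.026). The interaction of -0.16 ± 0.09 did not pass (FDR = 0.466), but it was -0.32 and passed without the first untreated IPO13+/+ library (FDR = 0.00494).

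The replicate differences of the TET genes had the same direction in 3 groups, with the first library 1.13-fold to 1.23-fold above the second for Tet1 and Tet2 in untreated IPO13+/+, untreated IPO13-/- and treated IPO13-/- cells. The TET genes and Dnmt3a have merged exons of more than 15000 bases. The 250 genes of that length with at least 10 CPM had a median log2 ratio of the first to the second library of 0.16 in untreated IPO13+/+, 0.07 in untreated IPO13-/-, 0.10 in treated IPO13-/- and -0.02 in treated IPO13+/+ cells, against 0.01 or less in size for all 8162 genes with a length. With H2O2, the median log2 fold change of these long genes was -0.11 with IPO13 and -0.09 without it, against -0.05 and -0.01 for all. Tet2, at -0.36 and -0.57, lay below those medians. The median interaction was -0.00068 for the long genes and 0.04 for all with a length. Tet3, itself 1 of the long genes, had -0.47. The part of transcript length in the results of Tet1, Tet2, Tet3 and Dnmt3a was not tested.

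Of the summed CPM per kb of the 3 TET genes, Tet2 took 24.2% ± 0.40 (SD, n = 2) before and 21.7% ± 0.04 after H2O2 in the IPO13+/+ line, and 18.9% ± 0.19 before and 16.4% ± 0.02 after H2O2 in the IPO13-/- line. The share of Tet1 was 74.2% ± 0.46, 76.0% ± 0.03, 79.9% ± 0.21 and 82.2% ± 0.08 in the same order. Tet3 took 1.57% ± 0.07, 2.25% ± 0.01, 1.21% ± 0.01 and 1.41% ± 0.10. The balance between Tet1 and Tet2 RNA thus moved toward Tet1 with H2O2. It lay further toward Tet1 in IPO13-/- than in IPO13+/+ cells. Each difference was larger than the spread between replicates. The smallest p that an exact permutation test can give for 2 against 2 libraries is 0.333, so these shares were not tested.

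**Figure D2:**
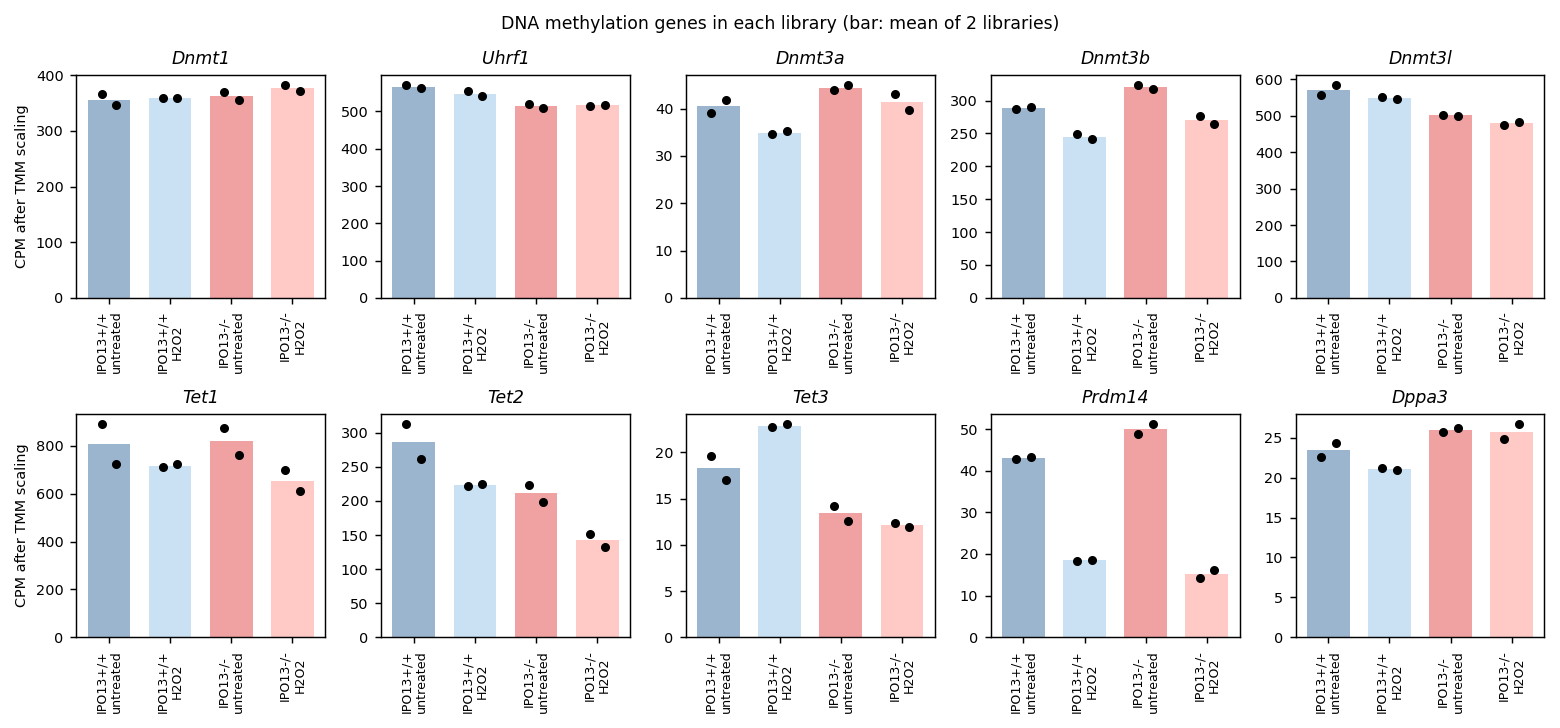
CPM after TMM scaling of the 10 genes in every library, with each point a library and each bar the mean of the 2 libraries of a group. Prdm14 is lower in the H2O2 groups of both genotypes, Tet2 and Tet3 are lower in IPO13-/- cells at each treatment, and Dnmt1 is nearly level.

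The de novo enzymes were lower after H2O2 in IPO13+/+ cells. Dnmt3b (chr2:153649450-153687730, plus strand) read 287 and 290 CPM in untreated and 248 and 241 CPM in treated IPO13+/+ libraries, and 323 and 317 CPM in untreated and 276 and 265 CPM in treated IPO13-/- libraries. No group overlapped the other of its genotype. Dnmt3b fell by 15.1% in IPO13+/+ cells (log2 fold change -0.24 ± 0.04, FDR = 3.55e-05) and by 15.6% in IPO13-/- cells (log2 fold change -0.24 ± 0.04, FDR = 1.76e-05). The difference between these responses was -0.007, with a 95% interval from -0.12 to 0.11. The IPO13-/- cells had more Dnmt3b RNA than the IPO13+/+ cells, by a log2 fold change of 0.15 ± 0.04 untreated (FDR = 0.00261) and 0.14 ± 0.04 treated (FDR = 0.00435). The treated difference did not pass without the second treated IPO13+/+ library (FDR = 0.0893) or without the first treated IPO13-/- library (FDR = 0.0935).

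Dnmt3a (chr12:3806007-3914443, plus strand) was lower per length than Dnmt3b in each library. It read 39.1 and 41.8 CPM in untreated and 34.6 and 35.3 CPM in treated IPO13+/+ libraries, and 43.9 and 45.0 CPM in untreated and 43.2 and 39.8 CPM in treated IPO13-/- libraries. The treated IPO13+/+ libraries were the lowest. Dnmt3a fell by 13.6% with H2O2 in IPO13+/+ cells (log2 fold change -0.21 ± 0.05, FDR = 0.00262), a call lost without the first treated IPO13+/+ library (FDR = 0.0552). The knockout showed a difference of -0.10 ± 0.05 (FDR = 0.167). The genotype difference was 0.25 ± 0.05 in treated cells (FDR = 0.000327). In untreated cells it was 0.13 ± 0.05 (FDR = 0.0377), which did not pass with limma-voom (FDR = 0.0549) or DESeq2 (FDR = 0.0954). The untreated call was also lost without the first untreated IPO13+/+ library (0.09, FDR = 0.25), without either untreated IPO13-/- library (FDR = 0.0719 and 0.196) and without either treated IPO13+/+ library (FDR = 0.0609 each). An antisense gene, Dnmt3aos, overlaps the locus, and the sources used here do not state whether strand was used in counting, so reads of the pair cannot be told apart. The same holds for Dnmt3bos at Dnmt3b, and reads of the near copy Dnmt3c may be shared with Dnmt3b. The pseudogene copies Dnmt3a-ps1 and Dnmt3l-ps1 may likewise share reads with Dnmt3a and Dnmt3l.

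Dnmt3l, the cofactor of the de novo enzymes, went the other way between genotypes. On chr10:78041947-78063622 (plus strand), it read 556 and 584 CPM in untreated and 551 and 545 CPM in treated IPO13+/+ libraries, and 503 and 499 CPM in untreated and 476 and 483 CPM in treated IPO13-/- libraries. All IPO13-/- libraries lay below all IPO13+/+ libraries. The log2 fold change between genotypes was -0.18 ± 0.04 untreated (FDR = 0.000229) and -0.19 ± 0.04 treated (FDR = 0.000148). With H2O2, the differences of -0.06 ± 0.04 in each genotype did not pass (FDR = 0.317 and 0.225). Aire overlaps the locus on the other strand, with 722 to 1598 reads per library against 29878 to 40900 for Dnmt3l. Of the summed CPM per kb of Dnmt3a, Dnmt3b and Dnmt3l, Dnmt3b took 22.6% ± 0.48 (SD, n = 2) before and 20.5% ± 0.20 after H2O2 with IPO13 present, and 26.9% ± 0.16 before and 24.5% ± 0.74 after H2O2 without it.

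The maintenance enzyme Dnmt1 was nearly level. Dnmt1 (chr9:20907209-20959888, minus strand) read 366 and 347 CPM in untreated and 360 and 359 CPM in treated IPO13+/+ libraries, and 370 and 356 CPM in untreated and 382 and 372 CPM in treated IPO13-/- libraries. None of its differences passed. The 95% interval of the response to H2O2 ran from -0.07 to 0.09 in IPO13+/+ cells and from -0.03 to 0.13 in IPO13-/- cells, so that changes larger than about 10% lie outside both. The genotype difference was 0.03 ± 0.04 in untreated cells (FDR = 0.622), and 0.11 (FDR = 0.0276) when library totals were used without TMM factors.

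Its partner Uhrf1 (chr17:56303321-56323486, plus strand) read 570 and 562 CPM in untreated and 554 and 541 CPM in treated IPO13+/+ libraries, and 519 and 510 CPM in untreated and 516 and 517 CPM in treated IPO13-/- libraries. The IPO13-/- libraries were the lower ones at each treatment. The genotype difference was -0.14 ± 0.04 untreated (FDR = 0.00291), a percent change of -9.22%. It was -0.06 (FDR = 0.228) with library totals and -0.12 (FDR = 0.0556) without the second untreated IPO13-/- library. In treated cells it was -0.08 ± 0.04 (FDR = 0.0723), which passed with DESeq2 (FDR = 0.0317) and limma-voom (FDR = 0.0497) and without either untreated IPO13+/+ library (FDR = 0.0304 and 0.0306). H2O2 gave no difference that passed in either genotype.

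Dppa3, which opposes UHRF1, was slightly higher in IPO13-/- cells. Its RNA from chr6:122626410-122630272 (plus strand) read 22.6 and 24.4 CPM in untreated and 21.2 and 20.9 CPM in treated IPO13+/+ libraries, and 25.8 and 26.2 CPM in untreated and 24.8 and 26.7 CPM in treated IPO13-/- libraries. Each IPO13-/- library was above each IPO13+/+ library. The genotype difference was 0.29 ± 0.06 in treated cells (FDR = 0.000146) and 0.14 ± 0.06 in untreated cells (FDR = 0.0414), the latter not passing with limma-voom (FDR = 0.0556) or DESeq2 (FDR = 0.114). It was lost without the first untreated IPO13+/+ library (0.09, FDR = 0.291), either untreated IPO13-/- library or either treated IPO13+/+ library. The response of -0.16 ± 0.06 in IPO13+/+ cells was close to the limit (FDR = 0.037) and did not pass with limma-voom (FDR = 0.059) or DESeq2 (FDR = 0.132), nor with any library left out except the first untreated IPO13+/+ one. The knockout stood at -0.01 ± 0.06 (FDR = 0.915). Dppa3 has an annotated pseudogene copy, Dppa3-ps, and some reads may be shared with it.

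Counted together, 1 of the 10 genes rose and 5 fell after H2O2 where IPO13 was present, while 11.5% of all tested genes rose and 13.8% fell. All 10 lie above 10 CPM, so the nearer measure is the 8162 genes with at least 10 CPM and a known length. This limit was chosen after the values were seen. Of these genes 13.1% rose and 25.2% fell. Of the 250 with at least 15000 bases of merged exons, a class that holds the TET genes and Dnmt3a, 8.4% rose and 35.6% fell. Of the 10 genes, the one that rose was Tet3, and those that fell were Prdm14, Tet2, Dnmt3b, Dnmt3a and Dppa3. By edgeR, none rose in the knockout, nor was any higher at an unadjusted p under 0.05 by edgeR, limma-voom or DESeq2. In these cells 4 fell, namely Prdm14, Tet2, Tet1 and Dnmt3b, while 14.9% of all tested genes rose and 14.4% fell. Of the 8162 expressed genes 21.6% rose and 22.7% fell, and of the 250 long ones 8% rose and 36.4% fell. The median log2 fold change of the 10 genes was -0.16 with and -0.12 without IPO13. It was -0.0011 and 0 over all tested genes, and -0.05 and -0.01 over the expressed ones.

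Between the genotypes in untreated cells, 4 genes were higher in IPO13-/- cells (Prdm14, Dnmt3b, Dnmt3a and Dppa3) and 4 were lower (Tet2, Tet3, Dnmt3l and Uhrf1), beside 18.7% and 19.4% of all tested genes and 23.1% and 31.1% of the expressed ones. In treated cells 3 were higher (Dppa3, Dnmt3a and Dnmt3b) and 4 were lower (Tet3, Tet2, Prdm14 and Dnmt3l), beside 19.1% and 17.5% of all tested and 26.8% and 23.5% of the expressed genes. The median difference was 0.03 untreated and -0.11 treated, against 0 over all genes in each, and -0.03 and 0.0016 over the expressed ones. In the interaction, Prdm14 and Tet3 passed in the lower direction, as did 0.705% of all tested and 0.833% of the expressed genes. By edgeR, limma-voom and DESeq2 0 of the 10 passed in the higher direction, also at an unadjusted p under 0.05, beside 2.01% of all tested and 3.82% of the expressed genes. The comparisons of stress and genotype share libraries and are not independent of each other.

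**Figure D3:**
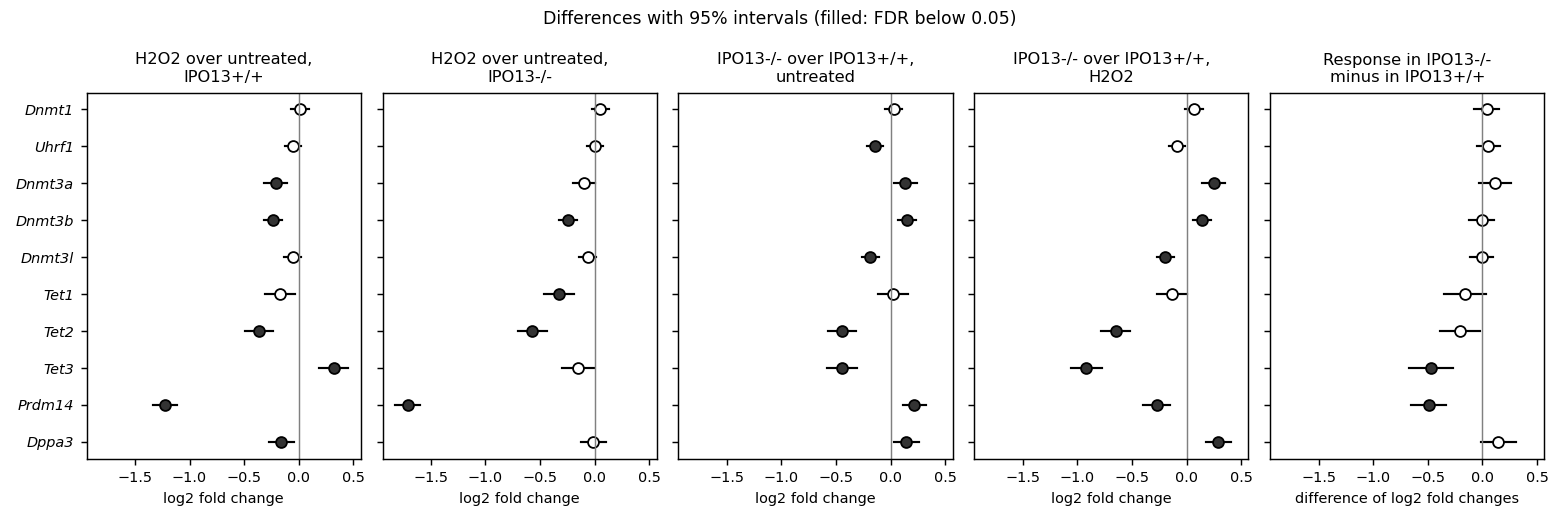
Log2 fold changes of the 10 genes in 4 comparisons and, at the right, the difference between the log2 responses to H2O2, with bars for 95% intervals and filled points for an FDR below 0.05. Prdm14 lies at -1.22 and -1.71 after H2O2, and Tet3 at -0.92 between the treated genotypes.

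Genes that act with these enzymes were examined as 5 lists. Of 15 partners of maintenance methylation and heterochromatin, 10 passed in IPO13+/+ cells after H2O2, each of them lower, with a list median of -0.14, while 13.8% of all tested and 25.2% of the expressed genes fell. The number of falls was 9 by limma-voom and 6 by DESeq2. The largest falls were those of Hells, a chromatin remodeller needed for methylation of repeats (407 to 334 CPM, log2 fold change -0.29 ± 0.04), and of Setdb1, an H3K9 methyltransferase (-0.20 ± 0.04). The knockout had 9 that fell and 1 that rose, the replication clamp Pcna at 0.12 ± 0.04, with a list median of -0.15. In the knockout 14.4% of all tested and 22.7% of the expressed genes fell. There, Hells fell by 0.35 on the log2 scale and Zfp57, which guards imprinted methylation, by 0.25. Between genotypes the list was mixed, with 6 higher and 4 lower untreated and 6 higher and 6 lower treated. Among the expressed genes 23.1% were higher and 31.1% lower untreated, and 26.8% and 23.5% treated. Cdca7, an activator of HELLS, was higher in IPO13-/- cells (0.41 ± 0.04 untreated and 0.36 ± 0.04 treated), as was Pcna (0.35 ± 0.04 treated), and Atrx was lower (-0.30 ± 0.05 untreated). List medians between genotypes were 0.03 and -0.01.

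Of 8 genes tied to PRDM14, 6 fell and 1 rose with H2O2 in IPO13+/+ cells (median -0.19). In the knockout 5 fell and 1 rose (median -0.16). DESeq2 called 5 falls in IPO13+/+ cells, and limma-voom and DESeq2 each called 4 in the knockout. Of all tested genes 11.5% rose and 13.8% fell with IPO13, and 14.9% and 14.4% without it. For the expressed genes the shares were 13.1% and 25.2%, and 21.6% and 22.7%. Jarid2, a subunit of the Polycomb complex PRC2, fell by 0.33 and 0.36 on the log2 scale. Fgfr1 was the gene that rose, by 0.31 ± 0.04 in IPO13+/+ and 0.22 ± 0.04 in IPO13-/- cells, whereas Fgfr2 fell by 0.45 in IPO13-/- cells. Both encode FGF receptors. Fgfr2 was higher in IPO13-/- cells, at 14.0 against 8.07 CPM untreated (0.79 ± 0.07) and 10.2 against 7.06 CPM treated (0.53 ± 0.07). Cbfa2t2, the corepressor that binds PRDM14, was higher as well (0.44 ± 0.04 and 0.40 ± 0.04). Of these 8 genes, 3 were higher and 3 lower in untreated IPO13-/- cells (median -0.03), and 3 were higher and 2 lower in treated ones (median 0.005). Among the expressed genes 23.1% were higher and 31.1% lower untreated, and 26.8% and 23.5% treated.

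In the list of 19 active demethylation genes, which act after or beside the TET enzymes, the strongest rise after H2O2 was that of Gadd45g, a stress-responsive gene of the GADD45 family. It rose from 1.48 to 5.57 CPM in IPO13+/+ cells (log2 fold change 1.91 ± 0.11, FDR = 5.72e-14) and from 1.49 to 9.29 CPM in IPO13-/- cells (2.64 ± 0.10, FDR = 1.06e-17), with an interaction of 0.73 ± 0.16 (FDR = 0.00797). Gadd45b rose by 0.62 ± 0.06 and 0.93 ± 0.06. In all, 4 rose and 2 fell in IPO13+/+ cells (median -0.04), with 1 fall by limma-voom or DESeq2. In IPO13-/- cells 9 rose and 3 fell (median 0.12). With H2O2, 11.5% of all tested genes rose and 13.8% fell with IPO13, and 14.9% and 14.4% without it. Of the expressed genes 13.1% rose and 25.2% fell with IPO13, and 21.6% and 22.7% without it. Between genotypes 2 were higher and 7 lower untreated (median -0.10), and 4 were higher and 8 lower treated (median -0.14). Among all tested genes 18.7% were higher and 19.4% lower untreated, and 19.1% and 17.5% treated. For the expressed genes the shares were 23.1% and 31.1%, and 26.8% and 23.5%. The DNA glycosylase gene Neil3 was higher (0.60 ± 0.09 untreated) and Neil1 was lower (-0.54 ± 0.11 untreated, -0.67 ± 0.11 treated) in IPO13-/- cells. Idh2, which makes 2-oxoglutarate in mitochondria, had an interaction of 0.26 ± 0.06 (FDR = 0.0124), and 1 further gene of the list passed in the lower direction. Against these 2 higher and 1 lower calls, limma-voom made 1 and 0 and DESeq2 made 1 and 1. By limma-voom 2 were lower at an unadjusted p under 0.05. In the interaction 2.01% of all tested genes were higher and 0.705% lower, and 3.82% and 0.833% of the expressed ones.

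Of 10 readers of methylated CpG, 2 rose and 1 fell in IPO13+/+ cells (median 0.03), beside 11.5% and 13.8% of all tested genes, and DESeq2 called 0 falls, with 1 at an unadjusted p under 0.05. Those that rose were Mbd6 (0.39 ± 0.06) and Zbtb33, which encodes KAISO (0.31 ± 0.05). In the knockout 2 rose, with Mbd6 at 0.28 ± 0.06, and 4 fell (median -0.05), whereas DESeq2 called 2 falls. The largest log2 fall there was that of Zbtb4 (-0.72 ± 0.18, near 1 CPM). Of all tested genes 14.9% rose and 14.4% fell in the knockout. In untreated IPO13-/- cells 2 readers were higher than in IPO13+/+ cells, led by Mbd5 (0.26 ± 0.08), with a list median of -0.02. DESeq2 called neither, and 18.7% of all tested genes were higher. Treated IPO13-/- cells had less of 3 readers, led by Zbtb4 (-0.51 ± 0.19) and Zbtb33 (-0.22 ± 0.05), with a median of -0.09. Of all tested genes 17.5% were lower in this comparison.

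Of 15 genes of the methyl donor cycle, 2 rose and 3 fell in IPO13+/+ cells (median -0.07), and 4 rose and 1 fell in IPO13-/- cells (median 0.01), beside 11.5% and 13.8% and 14.9% and 14.4% of all tested genes, so that these counts show nothing particular to the list. Mat2a, which makes S-adenosylmethionine in these cells, fell in both, from 749 to 595 CPM (-0.33 ± 0.04, FDR = 4.62e-08) and from 610 to 464 CPM (-0.39 ± 0.04, FDR = 1.78e-09). The folate enzyme gene Mthfd1 rose by 0.18 ± 0.04 in IPO13+/+ cells and by 0.24 ± 0.04 in IPO13-/- cells. In untreated IPO13-/- cells 3 genes of the list were higher and 9 lower (median -0.17). In treated ones 5 were higher and 6 lower (median -0.04). Among all tested genes 18.7% were higher and 19.4% lower untreated, and 19.1% and 17.5% treated. For the expressed genes the shares were 23.1% and 31.1%, and 26.8% and 23.5%. The liver form Mat1a was higher (0.33 against 0.03 CPM untreated, 0.28 against 0.01 CPM treated), but at these levels single reads matter, as for Bhmt (0.20 against 0.08 CPM treated). Gnmt, which uses up S-adenosylmethionine, was lower (-0.80 ± 0.16 untreated). In the interaction, edgeR, limma-voom and DESeq2 each called 0 genes of the lists of maintenance partners, readers, methyl donor and PRDM14 partners. At an unadjusted p under 0.05, edgeR had 1, 2, 5 and 2 of them.

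**Figure D4:**
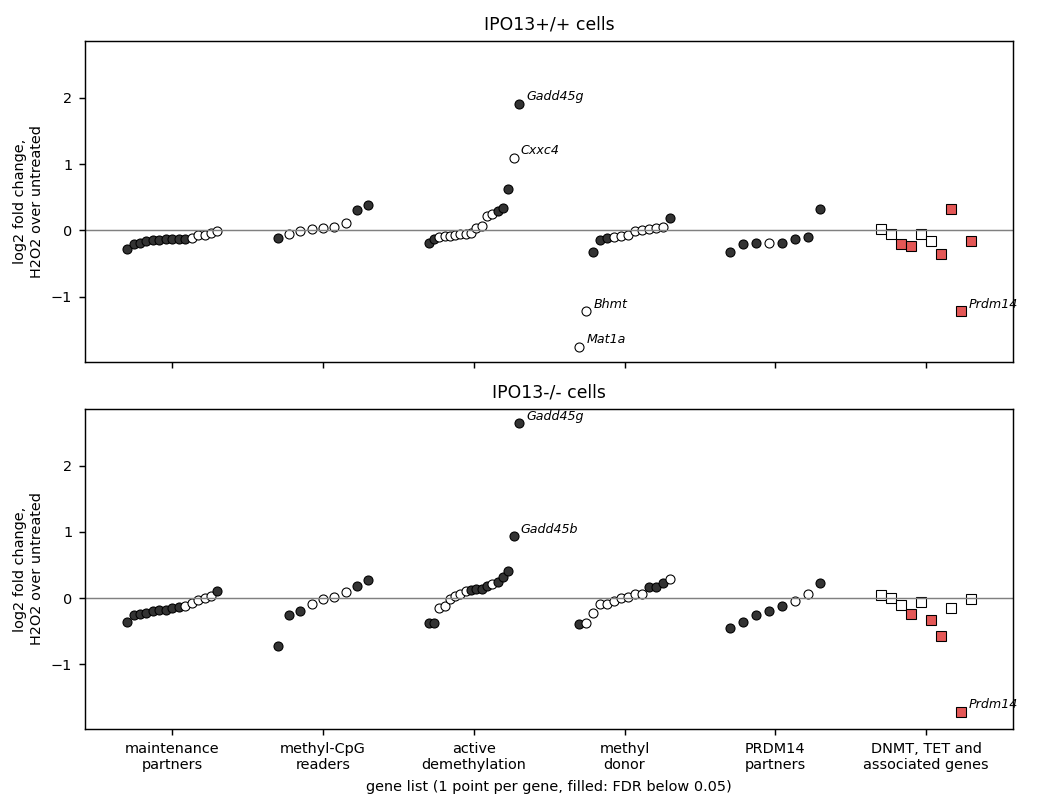
Log2 fold change after H2O2 of genes in the 5 companion lists (circles; 3 genes not reported here are left out) and of the 10 methylation genes (squares), in IPO13+/+ cells above and IPO13-/- cells below, with filled symbols for an FDR below 0.05. Gadd45g lies at 1.91 and 2.64, Prdm14 at -1.22 and -1.71, and most maintenance partners lie slightly below 0.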

How the data were processed

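RNA of 8 mESC libraries was sequenced in 4 groups of 2. According to the labels, the authors used bcl2fastq, STAR 2.3.1, HTSeq and limma with build mm10; annotation and strand setting are not given in the sources used here. The authors deposited raw counts per gene symbol and the same counts as CPM of the library total. All tests used the deposited counts. In R 4.3.3, edgeR 4.0.16 (TMM factors, quasi-likelihood test, 1 model of 8 libraries) was run on the 19424 genes with at least 1 count, with Benjamini-Hochberg adjustment. SE is the absolute log2 fold change over the square root of F. Alternatives were limma-voom (limma 3.58.1), DESeq2 1.42.0, other scalings and filters, a replicate block, fits of 4 libraries, and each library left out. The 10 genes and all lists were chosen with earlier results of these data known. Named companion genes passed at 2-fold or were the 2 largest passing in a comparison. A few of these are not reported here, though the counts of their lists include them. Intervals at this depth cover counting and replicate spread only. Gene positions are from GENCODE M21. The labels and the study's methods name different sequencers and read lengths.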

Additional observations from a re-analysis of the deposited data

Results flagged for a closer look

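Prdm14 and Tet3 responded differently to H2O2 in cells of the 2 genotypes by a test of the difference itself. For Prdm14 the log2 response in IPO13-/- cells minus that in IPO13+/+ cells was -0.49 (edgeR quasi-likelihood, FDR = 0.000342), and each treated library lay below each untreated one in both genotypes. For Tet3 the same quantity was -0.47 (FDR = 0.00493), with both treated libraries above both untreated ones in IPO13+/+ cells and below both in IPO13-/- cells. The Tet3 difference did not pass with limma-voom (FDR = 0.0508) or without the first untreated IPO13-/- library (-0.40, FDR = 0.212).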

How the results depend on the processing

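Over the other tools, scalings, filters and designs, 367 of 390 values for the single genes kept their side of the FDR limit. Of the rest, 13 no longer passed, 10 newly passed and 0 changed direction while called. Values that passed in neither fit could change sign. For Uhrf1 with H2O2 in IPO13-/- cells the log2 difference ranged from -0.03 to 0.02. With each library left out, the fits assume the lone library of a group to vary like the others. Most values then kept their side of the limit, while others lost or gained a call. Here too, small values could change sign, as for Dnmt1 with H2O2 in IPO13+/+ cells (from -0.02 to 0.05). The number of the 10 genes passing between untreated genotypes was 8 and ranged from 5 to 8 with a library left out. For the interaction it was 2, with 1 under limma-voom and a range of 1 to 4 with a library left out. Over all genes, 4908 passed for H2O2 in IPO13+/+ cells, 3163 in a fit of only the 4 libraries, and 2952 to 4729 with a library left out. In IPO13-/- cells 5704 passed, and 3204 to 6455 with a library left out. For the interaction 527 genes passed, against 255 with limma-voom, 294 with DESeq2, 349 after filterByExpr, and 73 to 1157 with a library left out. The causes were not tested. The replicate numbers are not known to pair the libraries: correlations of the deviations between groups ranged from -0.09 to 0.62. In a fit blocked on replicate, the interaction passed for 4 of the 10 genes and for 1291 of all genes, Tet1 (FDR = 0.0367) and Tet2 (FDR = 0.00673) being added. The block also added Tet1 for H2O2 in IPO13+/+ cells (-0.16, FDR = 0.00032), and Tet1 (-0.14, FDR = 0.00134) and Uhrf1 (-0.08, FDR = 0.0344) between treated genotypes. The largest shift of the median of all genes by another scaling was -0.0703, for the interaction with library totals.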
